A study of Homo sapiens with 6 samples.

Results

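The 10 genes described here are the inhibitors of DNA binding ID1, ID2, ID3 and ID4, the inhibitory SMADs SMAD6 and SMAD7, the co-repressors SKIL and TGIF1, the pseudoreceptor BAMBI and the ligand gene TGFB1. They were chosen by gene symbol, and each has 1 row among the 28395 genes of the deposited comparison. The control cells (OLO) were A375, an established human melanoma line, kept with 0.01% olive oil for 6 h. The labels give the genotype of the line as wild type, and its mutations were not examined here. The OZO cells were the same line kept for 6 h with 0.01% ozonated olive oil, a commercial oil made by reacting olive oil with ozone. RNA was sequenced in 3 libraries per group, so a single cell line, dose and time were examined. The labels do not say whether the 3 libraries of a group came from separate cultures. A figure legend of the study gives 3 independent experiments for these data. Whether OLO and OZO libraries were matched by experiment is not stated. P-values measure only the spread between the libraries of these groups. Levels are given per group, since no values per library were used here. Differences are fold changes of OZO over OLO on the log2 scale, written as log2 change, each with its standard error (SE), and an adjusted p is the Benjamini-Hochberg value of limma-voom over all genes. A gene is called where its adjusted p was under 0.05.

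Members of the TGF-beta superfamily bind pairs of receptor kinases at the cell surface, which phosphorylate SMAD transcription factors. TGF-beta and activin signal mainly through SMAD2 and SMAD3, and bone morphogenetic proteins (BMPs) mainly through SMAD1, SMAD5 and SMAD9, and SMAD4 is the partner of both branches. The ID genes are classical BMP targets. Their products carry a helix-loop-helix domain without a DNA-binding region, pair with E proteins such as TCF3, TCF4 and TCF12, and keep these from DNA. SMAD6, SMAD7, BAMBI and SKIL are induced by the pathway and restrain it, which closes a negative feedback loop. In melanoma, ID proteins and TGF-beta signalling are known for their part in cell cycle control, differentiation state and invasion.

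An implied read is a read in a library of 18409903 counted fragments, the common effective size, worked back from the log2 mean expression. Of the 10 genes, 9 had a mean of 10 implied reads or more and are called well read. ID4 was the exception, with a mean of 8.31 implied reads. The median log2 change of all genes was 0.19, in which 7012 genes without a read share 1 value of 0.33, and that of the 13773 well-read genes was −0.01. Of 8 markers of melanoma and the melanocyte lineage, 5 were well read, among them MITF and SOX10, and TYR had no read in any library. Their sum was 1960 implied reads in OLO and 1267 in OZO. The 4 markers of dedifferentiated melanoma summed to 6971 implied reads in OLO and 5559 in OZO. The keratinocyte list, of which KRT10 and KRT14 were well read and KRT1 had no read, summed to 557 in OLO and 540 in OZO. The fibroblast, endothelial and leukocyte lists summed to 106, 23.9 and 0.955 implied reads in OLO and to 125, 17.3 and 1.51 in OZO. In limma-voom 0 of the 26 markers had an adjusted p under 0.05, and 0 an unadjusted p under 0.05.

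To show the DNA next to ID1, the called gene, its relatives ID2 and ID3 and the inhibitory SMAD with the lowest fitted value, the 250 bases before the transcription start of ID1, ID2, ID3 and SMAD6 are given from the RefSeq promoter table of GRCh38.p14, each 5′ to 3′ on the strand of its gene. ID1 lies at chr20:31605289-31606510 on the plus strand and the window at chr20:31605039-31605288. ID2 lies at chr2:8682056-8684461 on the plus strand, with the window at chr2:8681806-8682055. ID3 lies at chr1:23557926-23559501 on the minus strand, with the window at chr1:23559502-23559751. SMAD6 lies at chr15:66702236-66782849 on the plus strand, with the window at chr15:66701986-66702235. Capitals mark every match, on either strand, to the 7 motifs searched, each spelled out after the sequences.
ID1: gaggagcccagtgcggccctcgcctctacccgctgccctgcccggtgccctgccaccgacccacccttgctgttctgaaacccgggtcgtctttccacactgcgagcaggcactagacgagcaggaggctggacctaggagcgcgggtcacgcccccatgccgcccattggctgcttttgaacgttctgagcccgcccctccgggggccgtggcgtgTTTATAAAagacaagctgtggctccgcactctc
ID2: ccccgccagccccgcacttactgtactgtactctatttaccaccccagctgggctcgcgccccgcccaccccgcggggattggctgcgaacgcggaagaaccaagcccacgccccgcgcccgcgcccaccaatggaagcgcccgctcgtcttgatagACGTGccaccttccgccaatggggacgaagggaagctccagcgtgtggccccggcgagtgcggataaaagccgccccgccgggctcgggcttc
ID3: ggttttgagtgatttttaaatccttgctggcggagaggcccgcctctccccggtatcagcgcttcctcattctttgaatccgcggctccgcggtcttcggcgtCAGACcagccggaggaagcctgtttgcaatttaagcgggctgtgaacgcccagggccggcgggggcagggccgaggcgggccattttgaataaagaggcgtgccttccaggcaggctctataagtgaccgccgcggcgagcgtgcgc
SMAD6: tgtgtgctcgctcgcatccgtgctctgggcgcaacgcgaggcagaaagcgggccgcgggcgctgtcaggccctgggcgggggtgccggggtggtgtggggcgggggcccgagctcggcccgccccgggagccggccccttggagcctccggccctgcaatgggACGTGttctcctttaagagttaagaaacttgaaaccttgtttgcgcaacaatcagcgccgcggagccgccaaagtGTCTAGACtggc

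The SMAD6 window held the palindrome GTCTAGAC, a SMAD-binding element, with its first base 12 bases before the start. This sequence was found in 64 of 35116 such windows (0.182%). CAGAC, a shorter SMAD-binding box, was present in the ID3 window and in a window of 6 of the 10 genes, against 38% of all windows. No copy of CAGAC was found in the windows of ID1, ID2 or SMAD6. GGCGCC, a GC-rich SMAD motif, occurred for SKIL and BAMBI, 3 times in the BAMBI window, against 16.4% of all windows. TATAAA was present for 4 of the 10 genes and 10.7% of windows, and in ID1 the forward and reverse matches overlap in a single run that begins 33 bases before the start. ACGTG, which also lies within CACGTG, was present for 4 genes, ID2 and SMAD6 among them, and in 18.5% of windows. TGACGTCA, the cAMP response element, was present for SKIL and 1.65% of windows, and CACGTG for 0 of the 10 genes and 6.34% of windows. All 10 genes were matched to the table, TGIF1 with 7 and SMAD7 with 3 windows, which gives these genes more places for a match. These matches describe letters in a window and not bound sites.

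To examine whether OZO changed the expression of ID and feedback genes, each gene was compared between OZO and OLO. ID1 fell, and it was the only 1 of the 10 genes with an adjusted p under 0.05. ID2, BAMBI, SKIL and TGFB1 had positive log2 changes and ID3, ID4, SMAD6, SMAD7 and TGIF1 negative ones, with adjusted p between 0.108 and 0.451. Of all 28395 genes, 7.04% were called, 3.98% higher and 3.06% lower in OZO. Among well-read genes 13.6% were called, and 1 of the 9 listed genes among them. The calls of the 10 genes were therefore near the background share.

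**Figure D1:**
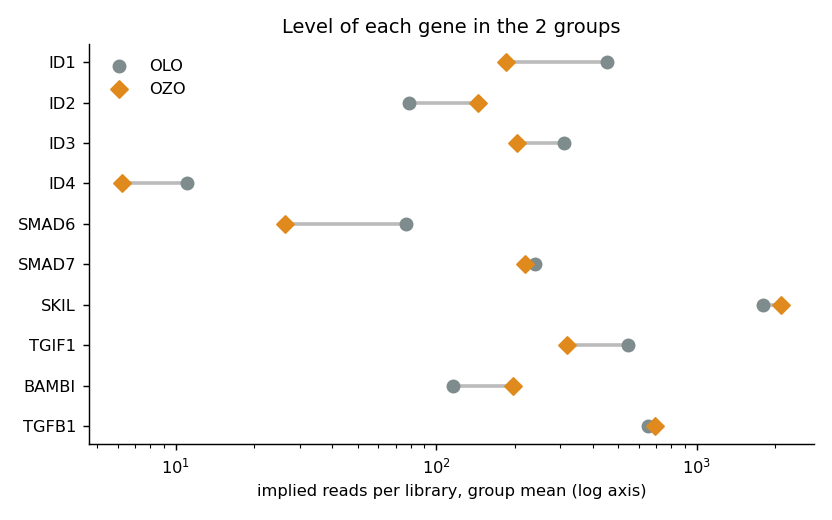
Implied reads per library in OLO (grey circles) and OZO (orange diamonds) for each of the 10 genes, on a log axis, without error bars because values per library were not analysed. ID1 was at 454 in OLO and 186 in OZO and SMAD6 at 76.3 and 26.2, while SMAD7 and TGFB1 nearly coincide in the groups.

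ID1 encodes a BMP-induced inhibitor of E proteins. Its level was 454 implied reads in OLO and 186 in OZO, which is 24.7 and 10.1 CPM. The log2 change was −1.29 (SE 0.18, 95% interval −1.76 to −0.82), so the level was 2.44-fold lower in OZO, and the adjusted p was 0.0245. Ordered by p-value, ID1 stood at place 1019 of all 28395 genes. In bulk RNA, fewer cells with a transcript and less of it per cell cannot be told apart. ID1 stayed below an adjusted p of 0.05 under both other centres of the fold changes, but it did not pass 0.01.

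ID2 had the opposite sign. This gene, which is also a target of MYC and of BMP signalling, had 78.7 implied reads in OLO and 145 in OZO. Its log2 change was 0.88 (SE 0.25, 95% interval 0.25 to 1.51) and the adjusted p was 0.125, so it was not called. The intervals of ID1 and ID2 do not overlap. A test of the difference between both genes needs values per library and was not run.

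ID3 shared the sign of ID1 without passing the test. Its level was 310 implied reads in OLO and 205 in OZO, with a log2 change of −0.60 (SE 0.19, 95% interval −1.08 to −0.12) and an adjusted p of 0.159. In the RefSeq annotation the gene overlaps the long non-coding RNA LOC124903876, for which no value was analysed here, and the use of strand in counting is not stated. ID4 (chr6:19837370-19842197) was sparsely read, at 11.1 implied reads in OLO and 6.20 in OZO. Its interval from −2.54 to 0.96 covers values on both sides of 0, with a log2 change of −0.79 (SE 0.68) and an adjusted p of 0.451. A change of ID4 under 3.53 on the log2 scale could not have been called at this depth and spread.

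Because the ID transcripts differ in length, their levels were also set per kilobase of the canonical GENCODE 44 transcript. In OLO the order was ID1 at 25.1, ID3 at 17.8, ID2 at 3.31 and ID4 at 0.162 CPM per kilobase. In OZO, ID3 came first at 11.7, before ID1 at 10.3, ID2 at 6.09 and ID4 at 0.094 CPM per kilobase. The ratio of ID1 to ID2 on this scale was 7.59 in OLO and 1.69 in OZO. ID1 and ID3 lie close together in OZO, and whether neighbours in this order differ beyond the spread of libraries was not tested.

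**Figure D2:**
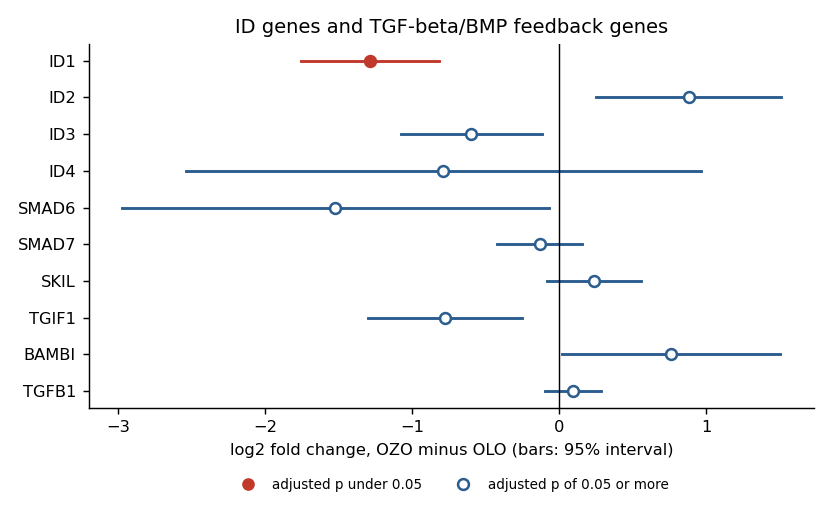
Log2 fold change of each of the 10 genes, OZO minus OLO, with bars for the 95% interval. The filled red point is ID1, the only gene with an adjusted p under 0.05, and the intervals of ID4, SMAD7, SKIL and TGFB1 include 0.

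The inhibitory SMADs compete with the receptor-activated SMADs at the receptor, SMAD6 mainly in the BMP branch and SMAD7 in both. SMAD6 had 76.3 implied reads in OLO and 26.2 in OZO. The log2 change of −1.52 was the most negative fitted value of the 10 genes, yet its standard error was 0.57, the 95% interval ran from −2.98 to −0.07 and the adjusted p was 0.232. SMAD7 (chr18:48919853-48950965) had 241 implied reads in OLO and 219 in OZO. Its log2 change was −0.13 (SE 0.11, adjusted p 0.439), and the 95% interval from −0.43 to 0.16 leaves out a change as large as that of ID1. Whether SMAD6 and SMAD7 differed in their change was not tested.

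The co-repressors act on SMAD complexes in the nucleus. SKIL, which encodes SnoN, is induced by TGF-beta and binds SMAD2, SMAD3 and SMAD4. SKIL (chr3:170357715-170396849) had the most reads of the 10 genes, 1799 implied reads in OLO and 2117 in OZO, with a log2 change of 0.23 (SE 0.12, 95% interval −0.09 to 0.56, adjusted p 0.249). TGIF1 encodes a homeodomain protein that recruits histone deacetylases to SMAD2 and SMAD3. TGIF1 (chr18:3412009-3459978) had 547 implied reads in OLO and 319 in OZO. With a log2 change of −0.78 (SE 0.20, 95% interval −1.30 to −0.25) it had the second smallest p-value of the 10 genes, and its adjusted p was 0.108. The locus also holds the pseudogenes BOD1P1 and LOC124904374 and the long non-coding RNA LOC124904237, for which no value was analysed here. TGIF1 passed, at an adjusted p of 0.0488, once the median of all genes was set to 0, a centre that lowers every log2 change by 0.19.

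BAMBI resembles a type I receptor without a kinase and blocks receptor pairing. BAMBI (chr10:28677521-28682932) had 116 implied reads in OLO and 197 in OZO, with a log2 change of 0.76 (SE 0.29, 95% interval 0.02 to 1.50) and an adjusted p of 0.242. TGFB1, the ligand, is known to sustain its own expression in many cells. TGFB1 (chr19:41330323-41353922) had 649 implied reads in OLO and 692 in OZO. Its log2 change was 0.09 (SE 0.07, 95% interval −0.10 to 0.28, adjusted p 0.422), the narrowest interval of the 10 genes, and its sign became negative, at −0.09, under the centre on all genes.

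The intervals of 6 of the 10 genes left out 0, which is the same as an unadjusted p under 0.05. ID1, ID3, SMAD6 and TGIF1 had negative values (4 genes), and ID2 and BAMBI positive ones (2 genes). Of all genes 19.7%, and of well-read genes 35.6%, met the same limit. When the adjustment was recomputed over well-read genes, 20.6% of these were called, and of the listed genes again ID1, at 0.0126. TGIF1 came next at 0.057 and ID2 at 0.0659. The median log2 change of the 10 genes was −0.37, and it was −0.13 without ID4, so that the middle value of this short list moves with a single gene.

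**Figure D3:**
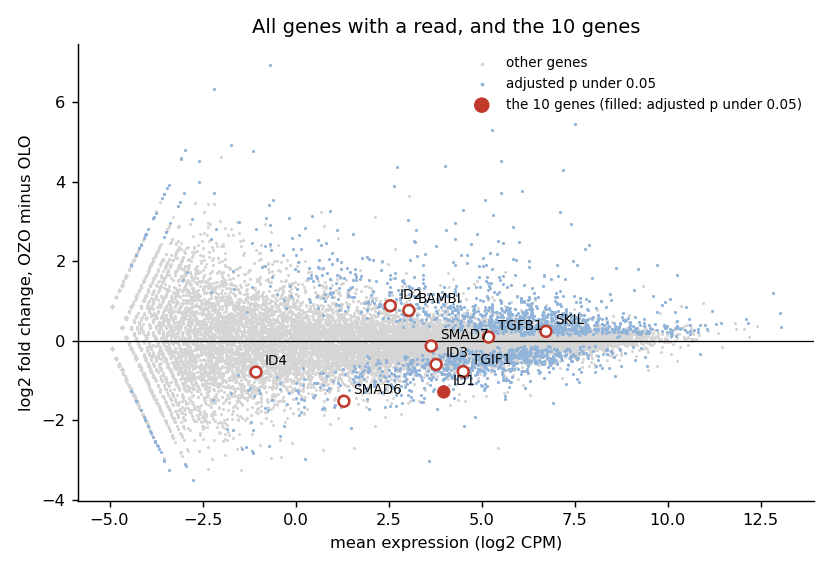
Log2 fold change against mean expression for all genes with a read, with genes of adjusted p under 0.05 in blue and the 10 genes as red circles. ID1, filled, sits among the called genes below 0, while TGFB1 and SMAD7 lie near 0.

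The standard error carries what the deposited values hold on the spread between libraries. It ranged from 0.07 for TGFB1 to 0.68 for ID4. For 8 of the 10 genes it was above the median of the 200 genes nearest in mean expression, and for SMAD7 and TGFB1 it was below. SMAD6 stood out, at 0.57 against a median of 0.26 for its neighbours, with 89.5% of them at a smaller standard error. TGIF1 was similar, at 0.20 against 0.11, with 89% of its neighbours smaller. ID1 had 0.18 against 0.13. The size of change needed for a call at these standard errors ranged from 0.39 on the log2 scale for TGFB1 to 3.53 for ID4, with 0.95 for ID1, 1.27 for ID2 and 2.93 for SMAD6. Which library made these errors larger could not be seen in group values.

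**Figure D4:**
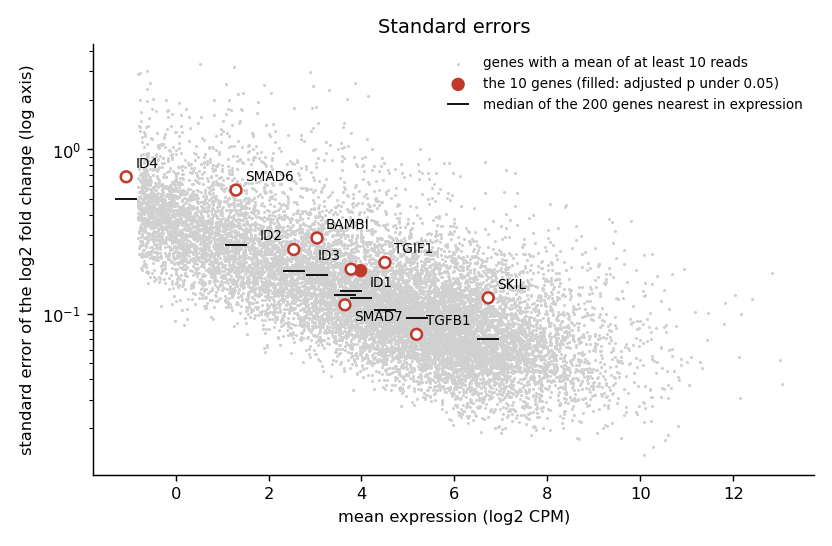
Standard error of the log2 change (log axis) against mean expression, for well-read genes in grey and the 10 genes as red circles, with black marks at the median of the 200 genes nearest in expression to each. SMAD6, TGIF1 and SKIL lie well above their marks, and SMAD7 and TGFB1 lie below.

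Other genes of the pathway were then counted by role, from a list of 94 genes. Of these, 5 were called higher and 3 lower (8.51% against 7.04% of all genes), 10 had no read and 61 were well read. Under the centre on well-read genes the calls stayed at 5 higher and 3 lower. The balance moved to 3 higher and 10 lower under the centre on all genes, whose median includes the 7012 genes without a read. Of all genes, 11% were called under that centre. GDF11, TWSG1, TCF3 and TCF12, named further on with small positive values, were below 0 under that centre. With the adjustment recomputed over well-read genes, 10 of the 61 were called, against 20.6% of all well-read genes. The median log2 change of the 94 genes was 0.10, against 0.19 for all genes. That of the 61 well-read ones was 0.07, against −0.01 for all well-read genes.

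Among ligands, BMP2 rose, a BMP that activates SMAD1 and SMAD5. BMP2 had 179 implied reads in OLO and 370 in OZO, with a log2 change of 1.05 (SE 0.20) and an adjusted p of 0.0485. It was the only call among 13 BMP ligands and lost it under the centre on all genes, where the adjusted p was 0.0609. Under the centre on well-read genes BMP2 kept its call, at 0.0476. Of the 13 TGF-beta, activin and GDF ligands 0 were called in limma-voom, with 1 at an unadjusted p under 0.05. That gene, INHBA, had a log2 change of 1.14 (SE 0.24) and an adjusted p of 0.0626. Recomputed over well-read genes, its adjusted p was 0.0326. GDF11, the most expressed of the 13 ligands, had a log2 change of 0.11 (SE 0.33, adjusted p 0.844). Of the 4 latent TGF-beta binding proteins and LRRC32, some of which hold the ligand in store, 0 were called. An unadjusted p under 0.05 was found for 2 of them, 1 higher and 1 lower in OZO. The lower was LTBP3, the most expressed of this role, with a log2 change of −0.46 (adjusted p 0.116).

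Of 15 receptors and co-receptors, ACVR2A was called, a type II receptor for activins and some BMPs. The rise was small, from 305 to 391 implied reads, with a log2 change of 0.36 (SE 0.04, adjusted p 0.0154). The adjusted p of ACVR2A was 0.069 under the centre on all genes and 0.0148 under that on well-read genes. Its standard error was among the lowest for its level, with 1% of the 200 nearest genes below it.

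Of the 6 receptor-activated and common SMADs, SMAD1 and SMAD3 fell. SMAD1, of the BMP branch, had 278 implied reads in OLO and 181 in OZO, with a log2 change of −0.62 (SE 0.08, adjusted p 0.0219). SMAD3, of the TGF-beta branch, had 1226 in OLO and 616 in OZO, with a log2 change of −0.99 (SE 0.17, adjusted p 0.0371). Both kept their calls under the other centres. SMAD2, SMAD4, SMAD5 and SMAD9 did not pass, and only SMAD5 did so under the centre on all genes, at 0.0469.

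Of the 15 secreted antagonists 0 were called, 1 had an unadjusted p under 0.05 and 4 were well read. TWSG1, which binds BMPs outside the cell, was the most expressed of them with a log2 change of 0.06 (SE 0.10, adjusted p 0.731). Of 11 intracellular negative regulators SMURF2 fell, a ubiquitin ligase that SMAD7 brings to the receptor. Its level went from 2197 to 1746 implied reads, with a log2 change of −0.33 (SE 0.05, adjusted p 0.0314).

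Among TGF-beta target genes, JUNB and SNAI1 rose. JUNB, an AP-1 subunit, had a log2 change of 2.17 (SE 0.16, adjusted p 0.007), from 370 to 1674 implied reads. SNAI1, a repressor of epithelial genes, had a log2 change of 1.61 (SE 0.26, adjusted p 0.0318), from 95 to 292 implied reads. Both genes also answer growth factor and stress signals. CCN2, a matricellular protein gene on the same list, had a log2 change of −1.11 (SE 0.69) and was not called. TGFBI, the most expressed gene of this list, had a log2 change of 0.21 (SE 0.55, adjusted p 0.824). SNAI2 had one of 0.22 (adjusted p 0.836).

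Besides the ID genes, 6 BMP target genes were listed, of which 0 were called and 2 had an unadjusted p under 0.05. MSX1, the most expressed of them, had a log2 change of 0.57 (SE 0.19, adjusted p 0.176). ATOH8 was at 12 implied reads in OLO and 2.11 in OZO, under the floor of 3 reads in OZO. Its log2 change was −2.25 (SE 0.64), with an adjusted p of 0.127, so it was not called. The 95% interval ran from −3.88 to −0.62 and so includes falls much smaller than the fitted one. ATOH8 was singled out after its values were seen. Of the 3 E proteins that ID proteins bind 0 were called and 1 had an unadjusted p under 0.05. TCF12, the most expressed, had a log2 change of 0.17 (SE 0.06, adjusted p 0.178), TCF3 0.11 and TCF4 −0.08. Whether ID1 and these genes differed in their change was not tested.

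**Figure D5:**
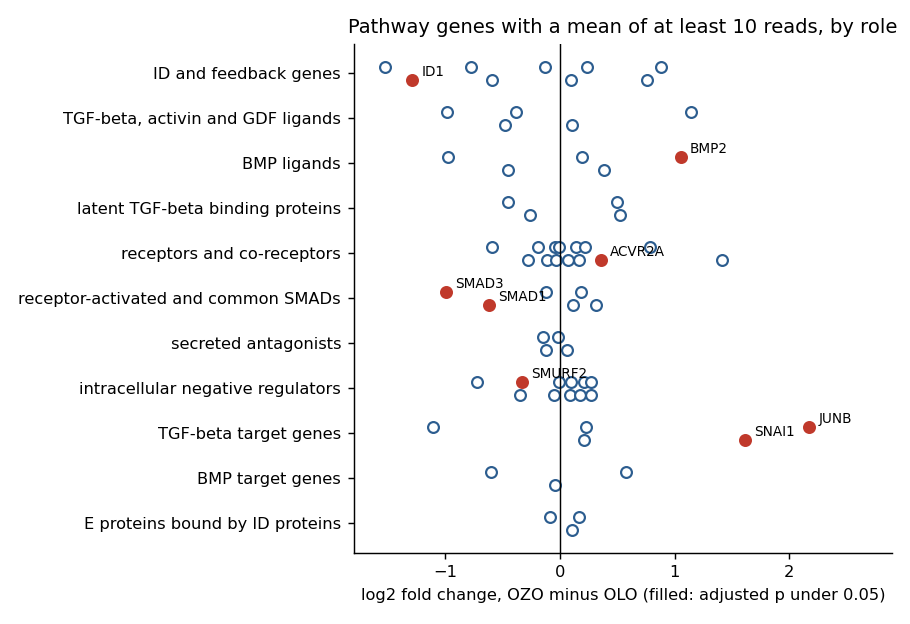
Log2 fold change of the well-read pathway genes reported here, 1 point per gene and 1 line per role, filled and named where the adjusted p was under 0.05. ID1, SMAD1, SMAD3 and SMURF2 lie below 0, and BMP2, ACVR2A, SNAI1 and JUNB above.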

How the data were processed

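RNA of 3 OLO and 3 OZO libraries of A375 cells was sequenced, and per the labels and methods the authors aligned reads to hg38 with HISAT2 2.1.0, counted them with featureCounts 2.1.1 and fitted limma-voom 3.58.1. Normalization factors, filters and strand setting are not given in the sources used here. The deposited table of treated minus control, read as OZO minus OLO, holds log2 values (fold change and mean log2 CPM, 0.5 being added to each count), a score (limma's moderated t), its p-value and an adjusted p-value, which equals a Benjamini-Hochberg adjustment over all 28395 genes. These columns are the authors' own comparison and no other measurement was at hand. Their t carries the spread between libraries, and the depth of single libraries is unknown.

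The standard error was the fold change divided by t, and the 95% interval used the degrees of freedom that link t and p (5.02 to 5.24). The lowest mean expression was taken as no read in any library. Reads per group were derived from mean expression and fold change, approximately because voom weights libraries. A called gene had an adjusted p-value under 0.05. Counts and floors cover counting error only. Named genes were all 10 members, called pathway genes and, in roles without a call, the most expressed gene. CCN2, TGFBI, SNAI2, INHBA and ATOH8 were named besides these, as were the uncalled SMADs, TCF3 and TCF4. Of the pathway genes 1 is counted but not reported here. Members and lists were chosen with earlier results of these data known. Positions are from RefSeq of GRCh38.p14, the assembly of hg38, and lengths from GENCODE 44. Calculations used Python 3.11.15 and scipy 1.17.1 and were tested on simulated data with limma 3.58.1.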

Additional observations from a re-analysis of the deposited data

How the results depend on the processing

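No paired analysis was possible because values per library were not analysed here, and for the same reason no replicate was left out in turn. How far a single library decides a value is therefore unknown. The number of the 10 genes called in limma-voom, 1, became 0 at an adjusted p-value under 0.01, 6 at an unadjusted p-value under 0.05 and 2 once the median of all genes was set to 0. The number of the 94 other pathway genes called, 8, became 4 when a 2-fold change was also asked for, 1 at an adjusted p-value under 0.01, 23 at an unadjusted p-value under 0.05 and 13 with the centre on all genes. With the centre on well-read genes both numbers stayed as they were, at 1 and 8. Of all genes, 1.8% passed with a 2-fold change, 0.954% under 0.01, 19.7% at the unadjusted limit and 11% with the centre on all genes. The changes with the threshold follow from its construction, and those with the centre from a shift of every log2 fold change by 0.19. The median log2 fold change of the 10 genes, −0.37, became −0.13 over those with a mean of at least 10 reads, which leaves out ID4. Of 29 recomputed values of single members, 27 kept direction and side of the threshold, TGIF1 passed under the centre on all genes at a log2 fold change of −0.96, and TGFB1 turned to −0.094 there. Depth limits ID4, with a mean of 8.31 implied reads. SMAD6 was well read, and its standard error was 0.57 against a median of 0.26 for the 200 genes nearest in expression.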
